A study of Arabidopsis thaliana with 12 samples.

Results

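In roots in which the transcription factor PLT5 was switched on, 73 genes that were close to silent in mock roots reached at least 1 CPM after 24 h of induction. They were picked by level from the 32548 nuclear loci with AT identifiers, out of 34262 loci in the count tables. CPM here is a gene's count divided by the total of its library and scaled by 1e6. A gene was taken when its mean was under 0.2 CPM over the 6 mock libraries, under 2 CPM over the 3 induced libraries of 8 h, and at least 1 CPM over the 3 induced libraries of 24 h. These 3 means chose the genes, so every induced value below, and every mock mean, is a description of the choice and carries no test. The rule left out 6 named loci, AT2G45190, AT5G42600, AT4G19730, AT4G19750, AT1G12980 and AT5G53950, of which 5 met the thresholds.

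The 4 groups of 3 biological replicates were compared, namely 24 h induced roots, 8 h induced roots, 24 h mock roots and 8 h mock roots. Every plant, mock plants included, carried 35S:XVE>>PLT5-TagRFP, in which the 35S promoter drives the estradiol-responsive regulator XVE in most cells and XVE in turn drives PLT5 fused to TagRFP. Induced plants received the inducer labelled EST and mock plants the solvent DMSO. Each library pooled 1.5 cm of root below the junction with the hypocotyl from 15 plants, with visible lateral roots cut off. Root segments hold many cell types, so more cells that transcribe a gene and more RNA of it per cell cannot be told apart. The labels do not give plant age, and how many transgenic lines were used is not stated there.

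PLT5 is an AP2-domain factor of the PLETHORA family, which acts in root meristems, in the placement of lateral organs and in regeneration. Genes of this family act upstream of stem cell, auxin and embryo regulators in Arabidopsis.

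Library totals lay between 34958324 and 41447647 counts, so 1 read was worth about the same in every library and 3 reads were worth 0.0724 to 0.0858 CPM. PLT5 itself, native and transgenic reads pooled, had 3095, 2969 and 2846 CPM in 24 h induced roots and 2423, 2710 and 2431 CPM in 8 h induced roots. Mock roots had 12.8, 16.6 and 11.4 CPM of it at 24 h and 11.9, 11.7 and 14.4 CPM at 8 h. No induced library overlapped a mock library for the targeted gene. A list of 12 mature root tissue genes, among them the suberin gene GPAT5 and the secondary wall genes CESA4, CESA7 and CESA8, summed to 324 to 342 CPM in 24 h induced roots and 931 to 1116 CPM in 8 h induced roots. The same list summed to 1163 to 1362 CPM in 24 h mock roots and 1209 to 1314 CPM in 8 h mock roots.

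The 73 genes together made up 210.4, 214.7 and 193.0 CPM in the 3 induced libraries of 24 h and 21, 32.7 and 26.8 CPM in those of 8 h. Mock libraries held 5.36, 6.13 and 8.47 CPM of them at 24 h and 6.02, 7.64 and 4.84 CPM at 8 h. Every one of the 73 had reads in every induced library of 24 h. At 8 h, 5, 5 and 7 of them had no read in the induced libraries, and 11 to 19 had none in a given mock library. The median gene had 1.84 CPM in 24 h induced roots, 0.272 CPM in 8 h induced roots and 0.0782 CPM over the 6 mock libraries. The range at 24 h ran up to 11.2 CPM, with 33 genes at 2 CPM or more, 9 at 5 CPM or more and 4 at 10 CPM or more.

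**Figure D1:**
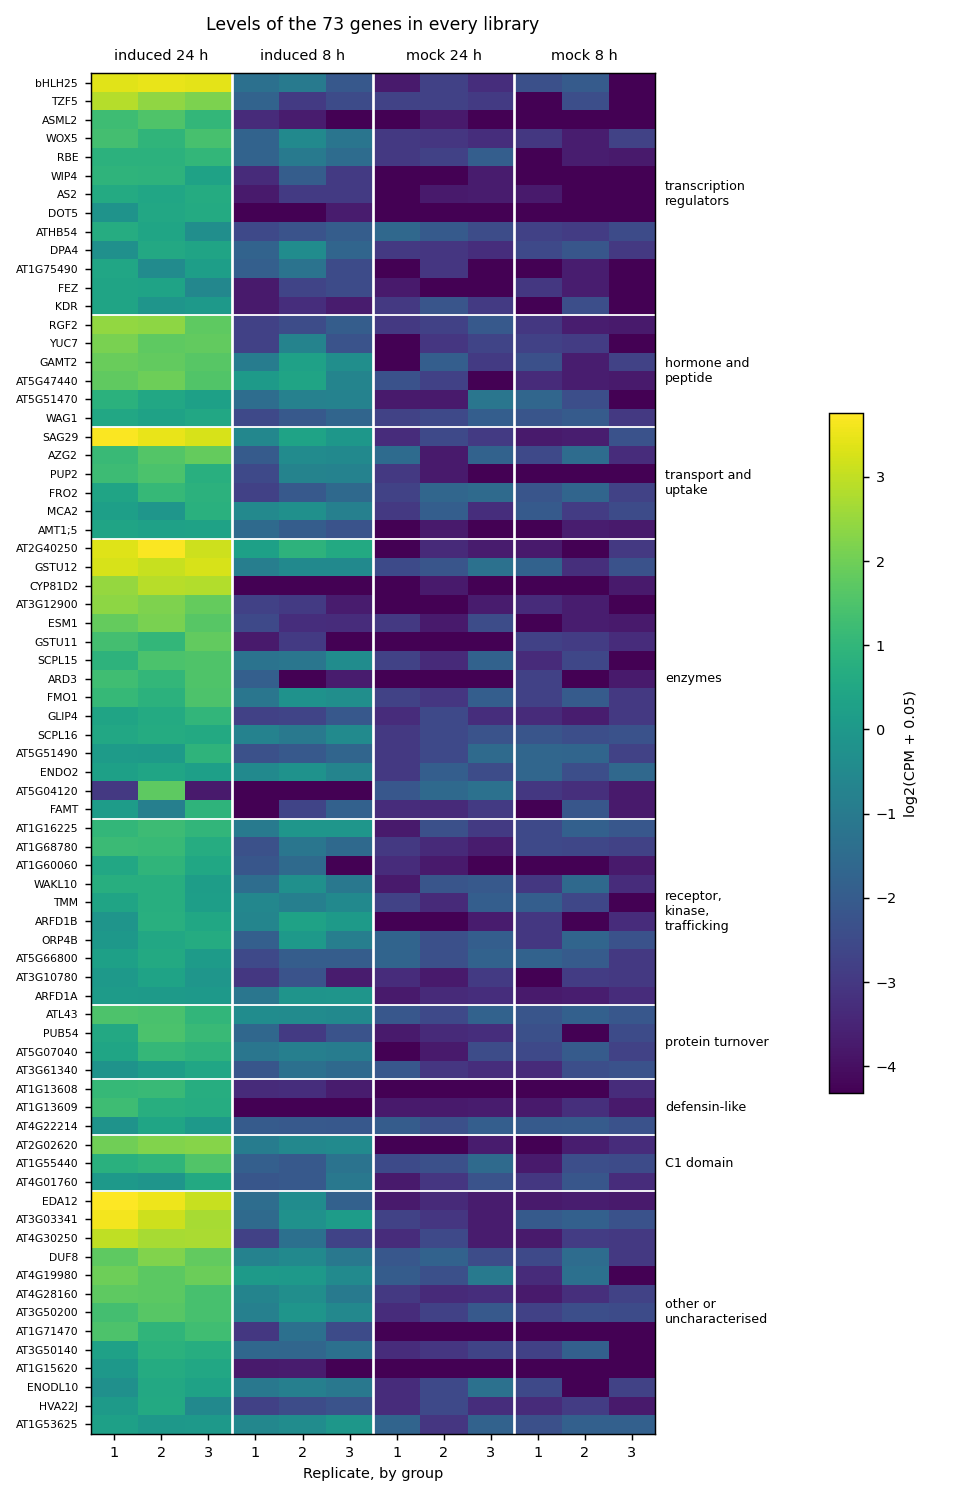
Level of each of the 73 genes (rows, grouped by role) in each of the 12 libraries (columns, replicates 1 to 3 of each group), coloured by log2(CPM + 0.05). The 3 induced libraries of 24 h are bright in nearly every row and the 6 mock libraries are dark. Induced libraries of 8 h range by row from intermediate to as dark as mock. The enzyme gene AT5G04120 is bright in induced 24 h replicate 2 alone.

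All 73 were protein-coding, against 61.9% of the 11534 loci that were equally silent in mock roots and stayed under 1 CPM at 24 h, and 84.3% of all nuclear loci. Their exons covered a median of 1389 bases, with 3 exons, against 907 bases and 2 exons for coding genes that stayed silent and 1552 bases and 4 exons for all coding genes. CPM favours longer genes, so length enters the choice. Chromosome 1 held 27 of them (37.0%), where it held 26.6% of the loci that stayed silent. Of the 73, 42 had a RefSeq symbol of their own.

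The most abundant of the 73 per unit of length was AT3G03341, annotated as a cold-regulated protein, at 16.1 CPM per kilobase of exon in 24 h induced roots. It had 12.1, 8.75 and 6.41 CPM in 24 h induced roots, 0.297, 0.799 and 1.05 CPM in 8 h induced roots, 0.102, 0.0724 and 0.0269 CPM in 24 h mock roots and 0.194, 0.229 and 0.154 CPM in 8 h mock roots. It overlaps UNE6 on the other strand, a gene of 43.2 CPM at 24 h after induction, and the strand setting of the counting is not given. Next per kilobase was EDA12, at 10.7 CPM per kilobase, a gene named for a mutant whose embryo sac stops developing. EDA12 had 13.4, 11.7 and 8.45 CPM in 24 h induced roots and 0.322, 0.719 and 0.237 CPM in 8 h induced roots. Mock roots had 0.0255, 0.0483 and 0.0269 CPM of EDA12 at 24 h and 0.0243, 0.0286 and 0.0256 CPM at 8 h, which was 1 or 2 reads per library. The ratio of its pooled induced to its pooled mock counts at 24 h, each divided by the pooled library totals, was 330. It rests on those few mock reads, and no interval was computed for it.

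SAG29, also called SWEET15, a sugar exporter of senescing leaves and seeds, had 13.1, 11.1 and 9.55 CPM in 24 h induced roots and 0.619, 1.22 and 0.92 CPM in 8 h induced roots. Its mock values were 0.051, 0.121 and 0.0807 CPM at 24 h and 0.0243, 0.0286 and 0.154 CPM at 8 h. The bHLH transcription factor gene bHLH25 had 10.5, 11.2 and 10.8 CPM in 24 h induced roots, one of the narrowest spreads of the set at a coefficient of variation of 3.53%. At 8 h induced roots had 0.347, 0.453 and 0.184 CPM of bHLH25, against 0.0255, 0.0965 and 0.0538 CPM in 24 h mock roots and 0.146, 0.2 and 0 CPM in 8 h mock roots. For both genes the induced values at 24 h stood clear of all other libraries, and those of 8 h lay above the mock values of 8 h for SAG29 but overlapped them for bHLH25.

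The stretch upstream of the annotated start was read for all 73 from the RefSeq TAIR10.1 genome, in which their coordinates equal those of the count tables. Windows of 250 bases of a few are shown because they belong to genes described here and hold the G-box word CACGTG, the core of binding sites of many bHLH and bZIP factors, or the word CATGCA, the core of the RY element that B3 factors of seeds bind. Capitals mark every match to a searched word, on either strand, and the last base of each line is the one before the start.

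EDA12, chr2:15104466-15104715, plus strand: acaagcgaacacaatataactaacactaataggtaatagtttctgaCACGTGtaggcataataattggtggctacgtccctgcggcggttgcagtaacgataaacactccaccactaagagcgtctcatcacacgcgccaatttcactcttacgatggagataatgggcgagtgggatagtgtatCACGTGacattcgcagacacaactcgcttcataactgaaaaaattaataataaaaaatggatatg

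bHLH25, chr4:17797902-17798151, minus strand: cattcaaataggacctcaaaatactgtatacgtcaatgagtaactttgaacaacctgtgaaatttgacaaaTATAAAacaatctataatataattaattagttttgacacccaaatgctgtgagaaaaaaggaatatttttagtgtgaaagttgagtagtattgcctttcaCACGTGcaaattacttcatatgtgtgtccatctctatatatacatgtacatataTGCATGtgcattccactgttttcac

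SCPL16, chr3:3899020-3899269, minus strand: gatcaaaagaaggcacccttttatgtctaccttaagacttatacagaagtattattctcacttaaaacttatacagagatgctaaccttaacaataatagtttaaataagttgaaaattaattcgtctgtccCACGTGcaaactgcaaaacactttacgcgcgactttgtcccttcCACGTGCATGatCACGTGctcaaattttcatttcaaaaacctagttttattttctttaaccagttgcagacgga

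WOX5, chr3:3527030-3527279, plus strand: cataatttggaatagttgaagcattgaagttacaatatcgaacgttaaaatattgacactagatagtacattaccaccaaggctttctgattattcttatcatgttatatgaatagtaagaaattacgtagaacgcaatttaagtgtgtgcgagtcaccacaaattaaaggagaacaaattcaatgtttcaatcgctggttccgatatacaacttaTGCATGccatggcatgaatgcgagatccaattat

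The word CACGTG, which reads the same on both strands, stood in 8 of the 73 windows (11.0%), against 6.49% of the 27438 windows of all coding genes and 4.58% of the 7133 windows of coding genes that stayed silent. Holders were EDA12 with matches at -204 and -65, bHLH25 at -79, AT3G03341 at -94, the purine transporter gene AZG2 at -83, FMO1 at -35, SCPL16 at -118, -74 and -62, and AT5G04120 and AT1G75490 at -170, each counted to the first base of the match. CATGCA stood in 11 of the 73 windows (15.1%), against 8.43% of all coding genes and 11.6% of those that stayed silent. One CATGCA match in SCPL16 overlaps its CACGTG at -74. TATAAA stood in 52.1%, 47.4% and 50.4% of these 3 sets of windows. The auxin response words TGTCGG and TGTCTC stood in 2.74% and 9.59% of the 73 windows, and in 4.16% and 10.9% of all coding windows. The ANT consensus, the published site of a relative of PLT5, was in none of the 73 windows with all positions required; with only its invariant positions required it was in 1 window, that of AT1G68780, and in 20 of the 27438. Such matches are descriptions of letters and not of binding.

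Transcription regulators made up 13 of the 73 genes, with a median of 1.45 CPM in 24 h induced roots. The role was given by annotation and counts zinc finger genes such as TZF5. Whether each gene acts in transcription was not tested. WOX5, the homeobox gene that marks and maintains the quiescent centre of the root tip, had 2.47, 1.92 and 2.60 CPM in 24 h induced roots and 0.248, 0.666 and 0.394 CPM in 8 h induced roots. Mock roots had 0.0766, 0.0724 and 0.0538 CPM of WOX5 at 24 h and 0.0729, 0.0286 and 0.102 CPM at 8 h. All 6 induced libraries were above all 6 mock libraries. FEZ, a NAC gene that promotes divisions of root cap stem cells, had 1.26, 1.23 and 0.611 CPM in 24 h induced roots and 0.0248, 0.106 and 0.131 CPM in 8 h induced roots. Its mock values were 0.0255, 0 and 0 CPM at 24 h and 0.0729, 0.0286 and 0 CPM at 8 h, so the 8 h groups overlapped and those of 24 h did not.

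Both members of the WIP zinc finger family in the set were silent in nearly every mock library. WIP4, which acts with its relatives in founding the distal root meristem of the embryo, had 1.84, 1.82 and 1.20 CPM in 24 h induced roots and 0.0495, 0.213 and 0.0789 CPM in 8 h induced roots. A single read, in mock 24 h replicate 3, was its only one in 6 mock libraries. DOT5, a WIP gene described for leaf vein patterning, had 0.831, 1.38 and 1.48 CPM in 24 h induced roots, 0, 0 and 0.0263 CPM in 8 h induced roots and no read in any mock library. With a floor of 3 counts over the 3 mock libraries of 24 h, DOT5 was at least 48.2-fold higher in 24 h induced roots. The proteins of WIP4 and DOT5 were 70.2% identical over their aligned part.

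Several regulators of leaf and flower shape were in the set. AS2, a LOB-domain gene of leaf polarity, had 1.49, 1.33 and 1.53 CPM in 24 h induced roots, 0.0248, 0.0799 and 0.0789 CPM in 8 h induced roots, and 3 reads in all over the 6 mock libraries. RBE, a zinc finger gene of petal growth, had 1.76, 1.77 and 1.99 CPM in 24 h induced roots and 0.248, 0.453 and 0.316 CPM in 8 h induced roots. In mock roots RBE had 0.0766, 0.0965 and 0.215 CPM at 24 h and 0, 0.0286 and 0.0256 CPM at 8 h, without overlap between induced and mock libraries at either time. DPA4, a B3-type repressor of leaf serration, had 0.78, 1.41 and 1.27 CPM in 24 h induced roots and 0.248, 0.719 and 0.263 CPM in 8 h induced roots. DPA4 had 0.0766, 0.0724 and 0.0538 CPM in 24 h mock roots and 0.121, 0.172 and 0.0768 CPM in 8 h mock roots. Its level at 8 h was 35.5% of that at 24 h, the highest share among the regulators, whose median share was 7.04%.

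TZF5, a CCCH zinc finger gene, had 7.23, 5.30 and 4.38 CPM in 24 h induced roots and 0.248, 0.0799 and 0.131 CPM in 8 h induced roots, against 0.102, 0.0965 and 0.0807 CPM in 24 h mock roots and 0, 0.143 and 0 CPM in 8 h mock roots. ASML2, a CCT-domain activator of sugar-responsive genes, had 2.34, 2.82 and 1.99 CPM in 24 h induced roots, 0.0495, 0.0266 and 0 CPM in 8 h induced roots, and a single read in the 6 mock libraries. ASML2 was thus near 0 at 8 h in all 3 induced libraries. TZF5 was above all its mock values in induced 8 h replicate 1, at 0.248 CPM, while the 8 h groups overlapped. The homeodomain-leucine zipper gene ATHB54 had 1.56, 1.28 and 0.738 CPM in 24 h induced roots, 0.124, 0.160 and 0.210 CPM in 8 h induced roots, 0.281, 0.193 and 0.134 CPM in 24 h mock roots and 0.0971, 0.0858 and 0.128 CPM in 8 h mock roots. AT1G75490, an AP2-type DNA-binding gene, had 1.33, 0.691 and 1.09 CPM in 24 h induced roots and 0.223, 0.373 and 0.131 CPM in 8 h induced roots, with 4 reads over the 6 mock libraries. KDR, an HLH gene of light-controlled growth, averaged 1.03 ± 0.20 CPM in 24 h induced roots and 0.0348 CPM in 8 h induced roots (SD, n = 3), against 0.109 CPM in 24 h mock roots.

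**Figure D2:**
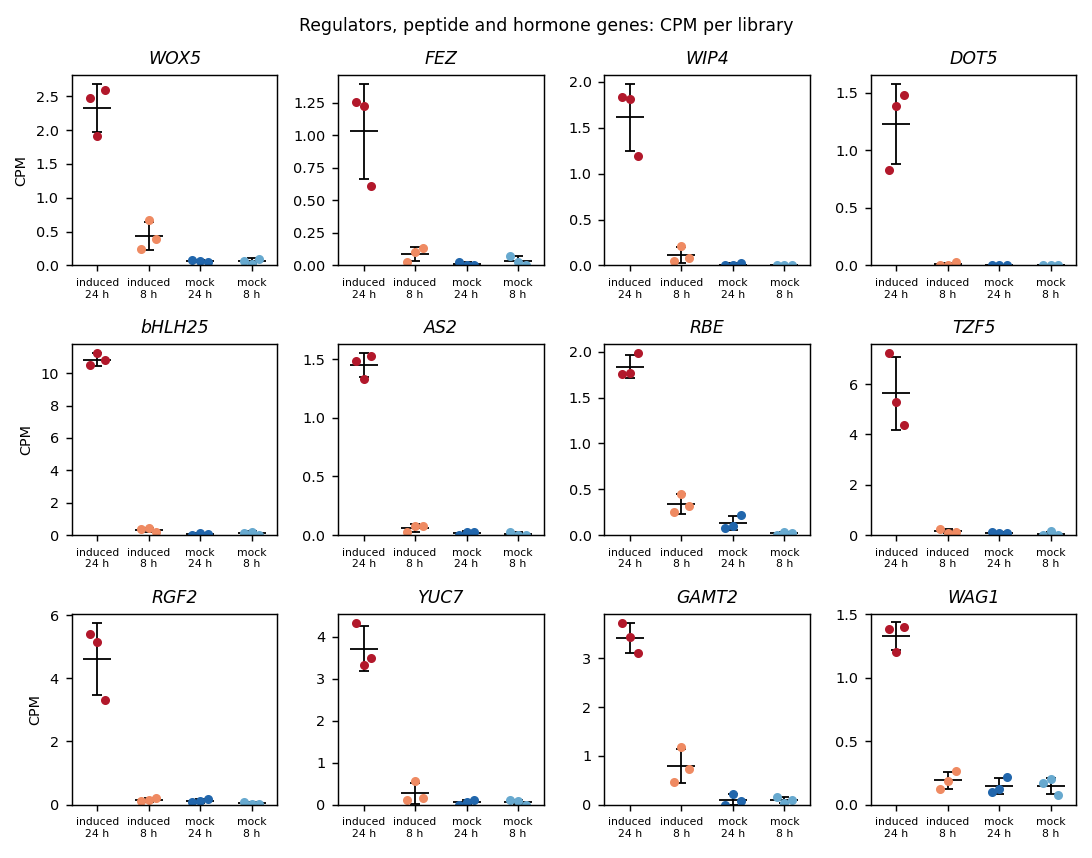
CPM (linear axis starting at 0, a different scale in each panel) of 8 transcription regulators and 4 peptide or hormone genes in 24 h induced roots, 8 h induced roots, 24 h mock roots and 8 h mock roots. Points are the 3 libraries of a group, the horizontal bar is their mean and the whiskers are 1 SD; in each panel the 3 induced points of 24 h stand above all others, as for WOX5 with 1.92 to 2.60 CPM at 24 h after induction.

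Hormone and peptide genes were 6 of the 73. RGF2 encodes a root meristem growth factor, a peptide of the root tip that maintains the stem cell niche through PLETHORA proteins. It had 5.41, 5.14 and 3.31 CPM in 24 h induced roots and 0.099, 0.133 and 0.210 CPM in 8 h induced roots, against 0.0766, 0.0965 and 0.188 CPM in 24 h mock roots and 0.0729, 0.0286 and 0.0256 CPM in 8 h mock roots. RGF2 at 8 h was thus at 3.19% of its level at 24 h. YUC7, a flavin monooxygenase of auxin synthesis, had 4.33, 3.33 and 3.49 CPM in 24 h induced roots and 0.099, 0.559 and 0.158 CPM in 8 h induced roots, against 0, 0.0724 and 0.108 CPM in 24 h mock roots and 0.0971, 0.0858 and 0 CPM in 8 h mock roots. Of its 3 induced libraries of 8 h, replicate 2 was the highest.

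GAMT2, a methyltransferase that inactivates gibberellins, had 3.73, 3.43 and 3.11 CPM in 24 h induced roots and 0.470, 1.17 and 0.736 CPM in 8 h induced roots, against 0, 0.217 and 0.0807 CPM in 24 h mock roots and 0.146, 0.0286 and 0.102 CPM in 8 h mock roots. WAG1, a kinase that acts on auxin exporters of the PIN family, had 1.38, 1.20 and 1.40 CPM in 24 h induced roots and 0.124, 0.186 and 0.263 CPM in 8 h induced roots, against 0.102, 0.121 and 0.215 CPM in 24 h mock roots and 0.170, 0.2 and 0.0768 CPM in 8 h mock roots. GAMT2 stood clear of mock roots at both times, WAG1 at 24 h alone. AT5G47440, annotated as an auxin canalization protein, averaged 3.39 CPM in 24 h induced roots and 0.948 CPM in 8 h induced roots, and AT5G51470, of the auxin-responsive GH3 family, averaged 1.42 CPM in 24 h induced roots and 0.469 CPM in 8 h induced roots.

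Of the 6 transport and uptake genes, SAG29 was described above. AZG2, a purine and cytokinin transporter, averaged 2.90 CPM in 24 h induced roots and 0.516 CPM in 8 h induced roots, against 0.177 CPM over the 6 mock libraries. The purine permease gene PUP2 averaged 2.22 CPM in 24 h induced roots and had 4 reads over the 6 mock libraries. AMT1;5, an ammonium transporter, had 1.26, 1.18 and 1.20 CPM in 24 h induced roots and 3 reads over the 6 mock libraries. FRO2, the ferric chelate reductase of iron uptake, averaged 1.70 CPM in 24 h induced roots and 0.192 CPM in 8 h induced roots, against 0.199 CPM over the mock libraries, just inside the ceiling. MCA2, linked to calcium uptake, averaged 1.24 CPM in 24 h induced roots and 0.647 CPM in 8 h induced roots.

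Enzyme genes were the largest group, with 15 members and a median of 2.4 CPM in 24 h induced roots. AT2G40250, a GDSL-type esterase gene, had 10.1, 13 and 8.81 CPM in 24 h induced roots and 1.16, 1.81 and 1.45 CPM in 8 h induced roots. Mock roots had 0, 0.0483 and 0.0269 CPM of AT2G40250 at 24 h and 0.0243, 0 and 0.0768 CPM at 8 h. It had the highest 8 h mean among the 73, at 1.47 CPM. The glutathione transferase gene GSTU12 had 9.54, 8.29 and 9.65 CPM in 24 h induced roots and 0.495, 0.666 and 0.657 CPM in 8 h induced roots, against 0.128, 0.169 and 0.350 CPM in 24 h mock roots and 0.243, 0.0572 and 0.154 CPM in 8 h mock roots.

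CYP81D2, a cytochrome P450 gene, had 5.56, 7.32 and 7.03 CPM in 24 h induced roots and no read in any induced library of 8 h. Mock roots held a single read of it at 24 h and a single read at 8 h. Its induced to mock ratio at 24 h was 781, with a 95% counting interval of 140 to 30901. AT3G12900, a dioxygenase gene of iron-mobilising coumarin synthesis, had 5.16, 4.50 and 3.51 CPM in 24 h induced roots and 0.099, 0.0799 and 0.0263 CPM in 8 h induced roots, with 4 reads over the 6 mock libraries. ESM1, a modifier of glucosinolate breakdown, averaged 3.67 CPM in 24 h induced roots and 0.0765 CPM in 8 h induced roots. GSTU11 averaged 2.63 CPM in 24 h induced roots and had no read in 24 h mock roots, which makes it at least 103-fold higher, and ARD3, a dioxygenase of methionine salvage, was at least 94.1-fold higher by the same floor.

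FMO1, a monooxygenase of systemic acquired resistance, averaged 2.21 CPM in 24 h induced roots and 0.653 CPM in 8 h induced roots. The carboxypeptidase-like genes SCPL15 and SCPL16 averaged 2.45 and 1.45 CPM in 24 h induced roots, and 0.494 and 0.551 CPM in 8 h induced roots. The carboxyl methyltransferase gene FAMT varied most among the enzymes that were up in all 3 libraries, with 1.06, 0.512 and 1.86 CPM in 24 h induced roots. AT5G04120, of the phosphoglycerate mutase family, had a mean that rests on 1 library. It had 3, 130 and 1 counts in 24 h induced roots, none in 8 h induced roots, and 7, 12 and 13 counts in 24 h mock roots. Without induced 24 h replicate 2 it is not in the set.

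The 10 receptor, kinase and trafficking genes had the lowest median of the role groups, 1.31 CPM in 24 h induced roots, and the highest median share already present at 8 h, 35.7%. TMM, a receptor-like protein of stomatal patterning, averaged 1.32 CPM in 24 h induced roots and 0.594 CPM in 8 h induced roots. ARFD1A and ARFD1B, small GTPases of vesicle traffic, were at 70.0% and 71.7% of their 24 h levels after 8 h. WAKL10, a wall-associated kinase-like gene, averaged 1.45 CPM in 24 h induced roots and 0.505 CPM in 8 h induced roots, and ORP4B, an oxysterol-binding protein gene, averaged 1.28 CPM in 24 h induced roots and 0.560 CPM in 8 h induced roots. The RING and U-box genes ATL43 and PUB54, of ubiquitin transfer, averaged 2.46 and 2.1 CPM in 24 h induced roots.

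The 3 C1-domain genes, AT2G02620, AT1G55440 and AT4G01760, averaged 4.48, 2.18 and 1.09 CPM in 24 h induced roots. AT2G02620 had 3.95, 4.63 and 4.86 CPM in 24 h induced roots and 0.470, 0.639 and 0.684 CPM in 8 h induced roots, against 4 reads over the 6 mock libraries. The defensin-like genes AT1G13608, AT1G13609 and AT4G22214 averaged 1.95, 1.84 and 1.04 CPM in 24 h induced roots. Among the 13 other genes, AT4G30250, an AAA-type ATPase gene, had 7.83, 6.37 and 6.54 CPM in 24 h induced roots and 0.099, 0.346 and 0.105 CPM in 8 h induced roots, against 0.051, 0.121 and 0.0269 CPM in 24 h mock roots and 0.0243, 0.0858 and 0.0768 CPM in 8 h mock roots. AT1G71470 and AT1G15620, both without a described role, had no read in any of the 6 mock libraries. AT1G71470 had 2.77, 1.92 and 2.37 CPM in 24 h induced roots and 0.0743, 0.346 and 0.131 CPM in 8 h induced roots. AT1G15620 had 0.932, 1.51 and 1.37 CPM in 24 h induced roots and 0.0248, 0.0266 and 0 CPM in 8 h induced roots.

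How much of the 24 h level was there at 8 h varied widely. The 8 h mean was a median of 14.1% of the 24 h mean, and under 10% for 28 genes, 10 to 25% for 27 and at least 25% for 18. For 5 genes, AT1G53625, ARFD1B, ARFD1A, ENDO2 and MCA2, it was 50% or more. CYP81D2, AT1G13609 and AT5G04120 had no read at 8 h in induced roots. The mean of 8 h induced roots was above that of 8 h mock roots for 67 of the 73. The rule held mock means under 0.2 CPM but let the 8 h induced mean reach 2 CPM, which favours that order. Its share over all genes was not computed, and nothing is read from it. At 24 h the lowest induced library was above the highest mock library for 72 genes, where 49.6% of all genes tested were so ordered, and at 8 h for 47, where 39.6% were.

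**Figure D3:**
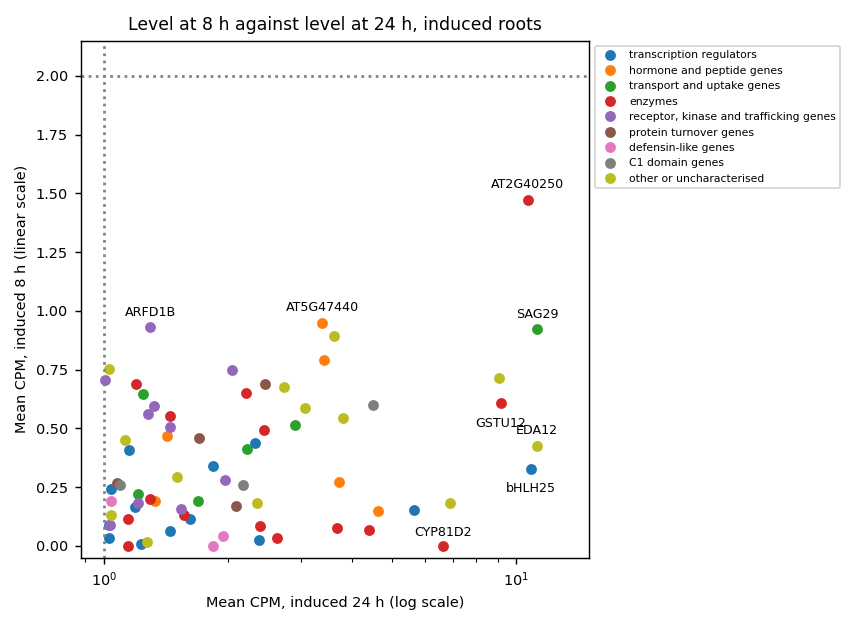
Mean CPM of each of the 73 genes in 24 h induced roots (x axis, log scale) and at 8 h (y axis, linear scale), coloured by role; dotted lines are the floor of 1 CPM at 24 h and the ceiling of 2 CPM at 8 h that chose the genes. AT2G40250 is the highest at 8 h with 1.47 CPM, while CYP81D2, at 6.64 CPM at 24 h, lies at 0.

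In the edgeR fit over all genes, 72 of the 73 were called higher in induced than in 24 h mock roots (adjusted p under 0.05), where 38.3% of the 21439 genes tested were called higher. At 8 h 37 were called higher and 1 lower, against 22.3% and 23.1% of all genes, and 70 were called higher at 24 h than at 8 h in induced roots, against 27.9%. These contrasts chose the genes, and nothing is read from their calls. All 73 passed the filter on low counts, which their induced libraries of 24 h ensured. The ceiling on the 6 mock libraries also bounds any difference between 24 h and 8 h mock roots, so these are set side by side without a test. The mock mean at 24 h was above that at 8 h for 35 genes, with medians of 0.0770 CPM at 24 h and 0.0679 CPM at 8 h.

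The thresholds fell among genes of like levels. Just inside the mock ceiling were AT4G19980, FRO2 and AT1G53625, at 0.1996, 0.199 and 0.196 CPM over the mock libraries, and just outside YUC3, AT4G16220 and AT2G16230, at 0.203, 0.208 and 0.213 CPM. At the 24 h floor ARFD1A, KDR and AT1G53625 had 1.01, 1.03 and 1.03 CPM, and AT4G16230, TAT3 and AT5G53700 just missed it with 0.991, 0.991 and 0.966 CPM. No gene lay near the 8 h ceiling, since AT2G40250, AT5G47440 and ARFD1B had 1.47, 0.948 and 0.930 CPM in 8 h induced roots and the nearest above it, AT1G05577, AT2G46160 and AT2G33010, had 2.53, 2.61 and 3.45 CPM. Leaving out each of the 12 libraries in turn kept 52 of the 73 genes every time. FEZ missed the 24 h floor without induced replicate 1 or 2 of 24 h.

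Some of the 73 are next to each other. In all, 10 pairs of successive members lay within 30000 bases, involving 19 genes, and 3 pairs had no other locus between them. GSTU12 and GSTU11 are 1850 bases apart on chromosome 1 (proteins 49.6% identical), the defensin-like genes AT1G13608 and AT1G13609 are 269 bases apart (36.4% identical) with RGF2 5112 bases further on, and ASML2 and AT3G12900 are 3928 bases apart with no protein match. ARFD1B and ARFD1A are 39 bases apart and 87.9% identical, and SCPL16 and SCPL15 are 3234 bases apart and 76.6% identical. Of the 10 pairs, 6 had a protein match. None of the 73 had a copy with a protein at least 95% identical, while 15 overlapped another annotated locus, RGF2, YUC7, PUP2, ENDO2 and GLIP4 among them.

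Genes beside the 73 were not picked for how they moved and could be tested. Level enters only where members and loci left out by name were stepped over. The nearest locus on each side that was neither among the 73 nor left out by name gave 135 neighbours, of which 98 were tested. At 24 h 48 were called higher (49.0%) and 22 lower (22.4%), against 38.3% and 34.0% of all genes tested, by edgeR's quasi-likelihood test adjusted over all genes. Their median log2 fold change was 0.20, against 0.06 for all genes. Calls of at least 2-fold higher numbered 18 (18.4%), against 5.83% of all genes, and calls of at least 2-fold lower 11 (11.2%), against 18.4%. At 8 h 33 were called higher (33.7%) and 20 lower (20.4%), against 22.3% and 23.1% of all genes. Scaled by library total alone, 40 were higher (40.8%) and 14 lower (14.3%), against 34.5% and 18.5% of all genes under that scaling. In the fit without that change of scaling, 11 of the 98 (11.2%) were called at least 2-fold higher at 8 h, beside 2.23% of all genes. In mock roots none of the neighbours was called between 24 h and 8 h by edgeR or DESeq2, with 8 at an unadjusted p under 0.05, where edgeR called 0.662% of all genes.

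LBD33, a lateral root LOB-domain gene next to RBE on the same strand, rose most among the neighbours at 24 h. It averaged 3.65 ± 0.43 CPM in 24 h induced roots and 2.79 ± 0.69 CPM in 8 h induced roots, against 0.185 ± 0.044 CPM in 24 h mock roots and 0.303 ± 0.159 CPM in 8 h mock roots (SD, n = 3 each). Its log2 fold changes were 4.13 ± 0.32 at 24 h (SE, edgeR adjusted p = 1.59e-07) and 3.12 ± 0.30 at 8 h (SE, edgeR adjusted p = 5.84e-06). Tandem relatives of members also rose. DUF9 beside DUF8 averaged 9.92 CPM in 24 h induced roots and 0.657 CPM in 24 h mock roots, a log2 fold change of 3.77 ± 0.18 (SE, edgeR adjusted p = 2.52e-09). The pectin methylesterase gene AT5G51500 beside AT5G51490 averaged 6.89 CPM in 24 h induced roots and 0.668 CPM in 24 h mock roots, and its log2 fold change was 3.23 ± 0.17. CYP81D8 beside CYP81D2 averaged 26.7 CPM in 24 h induced roots and 6.5 CPM in 24 h mock roots, 1.89 ± 0.10 on the log2 scale.

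Of the 18 neighbours that rose at least 2-fold, 8 had a protein match to the member beside them. Of the same 18, 2 overlap their member, where reads may be shared since the strand setting of the counting is not given. Among the 85 tested neighbours without such a match, 10 rose at least 2-fold (11.8%), again beside 5.83% of all genes. These 10 included LBD33, the cell cycle factor E2F3 (28.5 CPM in 24 h induced roots and 7.87 CPM in 24 h mock roots, overlapping HVA22J by 65 bases), the ERF gene RAP2.2 (463 CPM in 24 h induced roots and 154 CPM in 24 h mock roots), KOR2, an endoglucanase gene of the cell wall beside AS2 (38.7 CPM in 24 h induced roots and 8.84 CPM in 24 h mock roots), and HRS1, a nutrient-responsive repressor beside DOT5 (22.3 CPM in 24 h induced roots and 9.15 CPM in 24 h mock roots). Counted per member and side, at least 2-fold higher calls were made for 7 of 28 neighbours upstream on the same strand, 5 of 22 head to head, 4 of 25 downstream on the same strand and 3 of 30 tail to tail. At least 2-fold lower calls in the same order of positions numbered 4, 3, 0 and 7. Tail to tail neighbours thus had more lower than higher calls. So did all genes, with 18.4% called at least 2-fold lower and 5.83% at least 2-fold higher. WAT1, a vacuolar auxin transporter beside AT1G75490, averaged 210 CPM in 24 h induced roots and 886 CPM in 24 h mock roots, and its log2 fold change was -2.22 ± 0.07 (SE, edgeR adjusted p = 1.38e-10). BZIP27, 82 bases from MCA2, fell by 3.27 on the log2 scale at 24 h. TIP2;3, an aquaporin gene beside AT5G47440, had no read in 8 h induced roots, against 0.34, 1.57 and 0.742 CPM in 8 h mock roots, so its fitted 8 h change, the lowest in the plot of neighbours, is no bound.

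The closest relatives of the 73 genes moved in both directions. A relative outside the set with at least 30% identity over at least 50% of the protein was found for 67 members, giving 64 distinct paralogs, some of them also neighbours. Of these 17 (26.6%) were under 0.2 CPM in mock roots, and 33 were at 1 CPM or more. Over all nuclear loci 35.7% were under 0.2 CPM. Only 84.3% of those loci are protein-coding, while the paralogs were found by their proteins, so these shares are of unlike sets and no difference is read from them. Of the 48 tested, 19 were called higher and 18 lower at 24 h (39.6% and 37.5%), beside 38.3% and 34.0% of all genes, with a median log2 fold change of 0.03. At 8 h 11 were called higher (22.9%) and 12 lower (25%), near the 22.3% and 23.1% of all genes. Scaled by library total alone, 16 were higher (33.3%) and 11 lower (22.9%), against 34.5% and 18.5% of all genes. In mock roots none was called between 24 h and 8 h by edgeR or DESeq2, with 4 at an unadjusted p under 0.05.

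WAG2, the partner of WAG1 with a protein 74.9% identical, rose most among the paralogs. It had 33.2, 32.4 and 29.7 CPM in 24 h induced roots and 4.78, 5.94 and 4.52 CPM in 8 h induced roots, against 0.306, 0.362 and 0.645 CPM in 24 h mock roots and 0.559, 0.486 and 0.179 CPM in 8 h mock roots. Its log2 fold changes were 6.04 ± 0.23 at 24 h (SE, edgeR adjusted p = 3.66e-10) and 3.53 ± 0.26 at 8 h (SE, edgeR adjusted p = 6.78e-07). YUC3, 80.3% identical to YUC7, was just outside the mock ceiling and rose at 24 h, with 2.90 ± 0.52 CPM in 24 h induced roots, against 0.2 ± 0.153 CPM in 24 h mock roots (SD, n = 3 each). Its log2 fold change was 3.72 ± 0.49 at 24 h (SE, edgeR adjusted p = 2.13e-05) and -0.05 ± 0.66 at 8 h (SE, edgeR adjusted p = 0.957). RGF3, the closest relative of RGF2, averaged 0.679 CPM in 24 h induced roots and 0.102 CPM in 24 h mock roots, a log2 fold change of 2.56 ± 0.62 (SE, edgeR adjusted p = 0.00262).

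Some relatives fell. SOM, the closest relative of TZF5 and a repressor of seed germination, fell to 0.0422 CPM in 24 h induced roots, against 1.39 CPM in 24 h mock roots, and its log2 fold change was -5.07 ± 0.57 (SE, edgeR adjusted p = 4.94e-06). AT1G69730, the relative of WAKL10, had a log2 fold change of -3.01 ± 0.51, and AT1G54010, the relative of ESM1, one of -2.03 ± 0.41, both past the edgeR threshold. NTT, the relative of DOT5 that acts with WIP4, had 10.4, 11.4 and 8.27 CPM in 24 h induced roots, against 6, 5.96 and 6.13 CPM in 24 h mock roots, a log2 fold change of 0.59 ± 0.13 (SE, edgeR adjusted p = 0.00174). WOX7, 78.7% identical to WOX5, was not tested, with 0, 0.0256 and 0.0509 CPM in 24 h induced roots and no read in 24 h mock roots. WIP5, GAMT1, PUP3 and FRO1 were likewise too low to test.

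**Figure D4:**
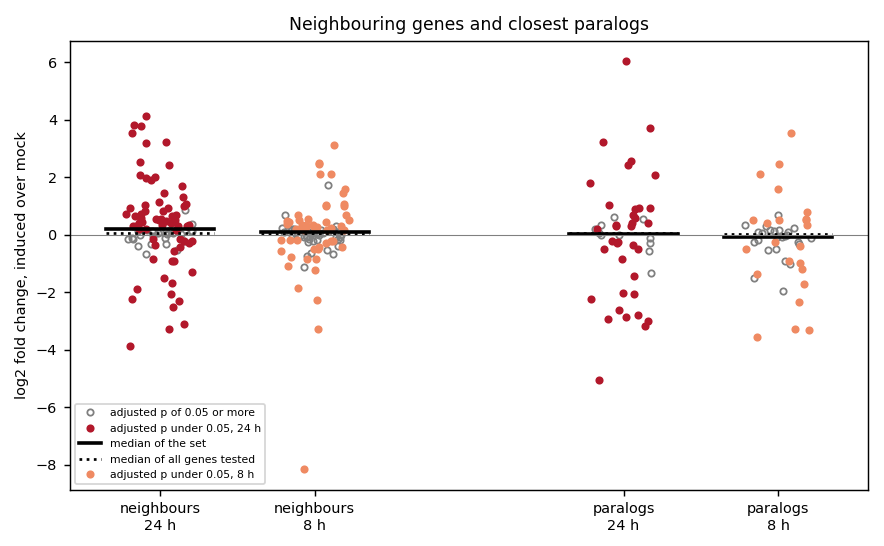
Log2 fold change, induced over mock, of the 98 tested neighbours and the 48 tested closest paralogs of the 73 genes at 24 h and at 8 h. Filled points passed an edgeR adjusted p of 0.05, open points did not, solid bars are the medians of each set and dotted bars the medians of all 21439 genes; the neighbour median at 24 h is 0.20 and the paralog median 0.03.

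Lists of known regulators and cell type markers held 99 genes, of which WOX5 is the only one among the 73. Of 24 regulators of embryo, meristem and organ boundaries, 14 were tested. By edgeR 9 of the 14 were called higher (64.3%) and 5 lower (35.7%) at 24 h, beside 38.3% and 34.0% of all genes, and at 8 h 4 were higher (28.6%) and 2 lower (14.3%), beside 22.3% and 23.1%. The 9 were LEC2, AGL18, DRN, CUC1, CUC2, BBM, PLT1, PLT2 and WOX5, of which DRN and CUC2 are loci left out by name. WOX5 and DRN met the 3 thresholds that chose the 73 genes. Their calls at 24 h follow from that choice, and the 64.3% includes them, so that share is a description and no test. PLT1, a root tip relative of PLT5, averaged 4.25 CPM in 24 h induced roots and 0.344 CPM in 24 h mock roots, a log2 fold change of 3.49 ± 0.31 (SE, edgeR adjusted p = 6.38e-07). BBM averaged 2.53 CPM in 24 h induced roots and 0.247 CPM in 24 h mock roots, a log2 fold change of 3.20 ± 0.41 (SE, edgeR adjusted p = 1.77e-05). Neither was called at 8 h, with log2 fold changes of -0.13 for PLT1 and 0.37 for BBM. The calls of CUC1 and PLT2 at 24 h were lost in 2 of the alternatives each, with adjusted p up to 0.0706 and 0.0709.

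Of 12 mature root tissue genes 11 were called lower (91.7%) and 1, SUC2, higher at 24 h, beside 34.0% lower and 38.3% higher over all genes. At 8 h 6 of them were lower (50%) and 1 higher, beside 23.1% and 22.3%. Root cap genes numbered 3, of which 2 were tested. SMB, the partner of FEZ, was called higher at 24 h (50% of those tested, beside 38.3% of all genes). It had 0.865 CPM in induced roots and 0.213 CPM in mock roots at 24 h. Summed, the root cap list had 0.957 to 1.15 CPM in 24 h induced roots and 0.193 to 0.672 CPM in 24 h mock roots. Of 4 root hair genes, RHD6 was called higher at both times (25%), beside 38.3% of all genes at 24 h and 22.3% at 8 h. Without induced 8 h replicate 2 it was not called at 8 h. The root hair list summed to 6.47 to 9.06 CPM in 24 h induced roots and 1.3 to 5.91 CPM in 24 h mock roots. RHD6 made up the gap, at 5.72 CPM in 24 h induced roots and 0.748 CPM in 24 h mock roots, while COBL9, EXPA7 and RSL4 had log2 fold changes of -0.43, -0.77 and -0.54 at 24 h and -1.61, -0.69 and -1.65 at 8 h, none past the edgeR threshold. The list median was -0.48 at 24 h and -1.15 at 8 h. Among 5 epidermis genes of shoot and embryo, ATML1, PDF1 and PDF2 were called higher (60%) and FDH lower (20%) at 24 h. These shares stand beside 38.3% and 34.0% of all genes. ACR4 was not called, with 10.7 CPM in 24 h induced roots and 10.5 CPM in 24 h mock roots. The list summed to 24.0 to 35.2 CPM in 24 h induced roots and 41.8 to 47.2 CPM in 24 h mock roots. FDH alone had 10.1 CPM in the former and 31.6 CPM in the latter. Of 17 floral regulators 4 were tested, with AP1 higher (25%) and SHP1 and SHP2 lower (50%) at 24 h, beside 38.3% and 34.0% of all genes. Of 6 YABBY genes only FIL was tested. It was called higher at both times, beside 38.3% of all genes at 24 h and 22.3% at 8 h. FIL is a locus left out by name that met the 3 thresholds, so its call at 24 h follows from that choice. The 15 seed storage and oil body genes were all too low to test, with summed levels of 0.0504 to 0.128 CPM in 24 h induced roots and 0.241 to 0.408 CPM in 24 h mock roots, and CRU3, SESA3, OLEO1 and EM1 at 0 in all libraries. Of 9 tapetum and pollen genes QRT3 alone was tested and was lower at both times, beside 34.0% of all genes at 24 h and 23.1% at 8 h. Photosynthesis genes, at 1918 to 2077 CPM in 24 h induced roots and 2247 to 2973 CPM in 24 h mock roots, had 3 of 6 called lower at 24 h and 3 of 6 higher at 8 h, beside 34.0% lower at 24 h and 22.3% higher at 8 h over all genes. Without induced 8 h replicate 2, 2 of those 3, RBCS1A and RCA, were not called. The part of any of these cell types in the levels of the 73 genes was not tested.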

How the data were processed

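Total RNA was isolated and stranded total RNA libraries were made with a TruSeq kit, per the labels' protocols. The deposited files hold raw gene counts by the authors, 1 library each, with locus, position and strand, per the file headers. Coordinates follow TAIR10 (per the submitters' processing notes). Which program aligned the reads, which counted them and whether it used strand is not stated in these sources. The members and lists were chosen with earlier results of these data known. CPM was computed here from counts and library totals. Counts were tested with edgeR 4.0.16 in R 4.3.3 (quasi-likelihood test, TMM scaling, filterByExpr by group, 1 coefficient per group over 12 libraries, Benjamini-Hochberg over 21439 genes, threshold 0.05), checked on simulated data; DESeq2 1.42.0 was an alternative. Scaling by library total in place of TMM shifted the median log2 fold change of all genes by 0.14 at 24 h. Library totals of 34958324 to 41447647 counts set the precision; intervals and floors cover counting error only. Proteins were compared with blastp 2.17.0 (e-value 1e-05), and sequences are from RefSeq TAIR10.1. Per-library values were given by rule for the 12 members highest at 24 h in CPM, for 12 transcription regulators and for members without mock reads; values of further members and the neighbours and paralogs named were picked after their values were seen. Alternatives were other scalings, DESeq2, no filter, fewer groups in the fit, a replicate block, other thresholds and leaving out each library.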

Additional observations from a re-analysis of the deposited data

Results flagged for a closer look

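AT1G13609, a defensin-like gene, had an induced mean above mock at 24 h and below mock at 8 h, the latter on a few reads. It had 93, 64 and 61 counts in induced roots at 24 h, against 1, 1 and 1 in mock roots at 24 h, and 0, 0 and 0 counts in induced roots at 8 h, against 1, 2 and 1 in mock roots at 8 h. The 8 h difference, induced minus mock, was -0.0357 CPM, which is under the 3 counts of the floor in every library. The difference between the times was not tested, since both contrasts rest on levels that chose the gene.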

How the results depend on the processing

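Under the alternatives run, 339 recomputed counts stayed within 1.5 times the reported one and 4 did not. The number of genes chosen was 46 with a mock ceiling of 0.1 CPM, 193 with one of 0.5 CPM and 33 with a 24 h floor of 2 CPM, against 73; it was 62 with TMM-scaled totals and 68 to 79 without 1 library. Listed genes called higher at 8 h numbered 6 without induced 8 h replicate 2, against 10, losing CUC1, RHD6, RBCS1A and RCA, and 6 to 12 over all left-out libraries. Without 1 library, genes of the 73 called higher numbered 72 to 73 at 24 h, 31 to 39 at 8 h and 63 to 70 between 24 h and 8 h. Neighbours called higher numbered 46 to 51 at 24 h, 18 to 22 of them at least 2-fold, and paralogs 19 to 22. Deviations of same-numbered induced and mock libraries correlated at 0.059 to 0.253 at 24 h and -0.00388 to 0.171 at 8 h. Between 24 h and 8 h they correlated at -0.0712 to 0.263 in induced roots and -0.186 to 0.243 in mock roots. These values do not settle whether samples with the same replicate number belong together. With the replicate number as a block, 72, 37 and 67 of the 73 genes were called higher at 24 h, at 8 h and between the times, and 49 neighbours and 20 paralogs at 24 h. Low counts are the limit: the median gene's mock mean of 0.0782 CPM is about 3 reads per library. FRO2, just inside the mock ceiling, had 4 to 11 reads in each mock library, so membership near the ceiling rests on low counts.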
